A study of Mus musculus with 46 samples.

Results

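Polycomb repressive complex 2 (PRC2) places methyl groups on lysine 27 of histone H3, a mark of silenced genes. Its catalytic subunit is Ezh2 or the closely related Ezh1, which works in a core with Eed, a reader of the methyl mark, Suz12, the scaffold, and the histone binding proteins Rbbp4 and Rbbp7. Jarid2, which bridges PRC2 to modified chromatin, and the Polycomb-like proteins Phf1, Mtf2 and Phf19, which help it bind DNA, are accessory subunits. Ezh2 is known as a gene of dividing cells and Ezh1 as the form that prevails in resting tissue, and BAF-family chromatin remodelling complexes are known opponents of Polycomb silencing. The report covers these 10 genes, chosen by name, out of 56980 genes in the hSS2 count table and 56941 in the hSS1 table. All 10 passed the filter on low counts in both tables, and the lowest count of any of them in any tumour was 30 reads, for Phf19. On GRCm38 they lie at chr11:101191115-101226463 (Ezh1), chr6:47530139-47595341 (Ezh2), chr7:89954654-89980983 (Eed), chr11:79993106-80034123 (Suz12), chr13:44729474-44921643 (Jarid2), chr5:108065674-108109004 (Mtf2), chr17:26933052-26937908 (Phf1), chr2:34893757-34914026 (Phf19), chr4:129307100-129335370 (Rbbp4) and chrX:162760402-162779092 (Rbbp7), and all are protein coding. Eed shares its strand with Gm45120 and Phf1 with Mir6968, so reads there could be split.

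RNA sequencing covered 46 tumours, each as a single library. They came from mouse models of synovial sarcoma in which TATCre protein, injected into a limb, switches on a human fusion gene, SS18::SSX2 (hSS2) or SS18::SSX1 (hSS1), in whichever cells the protein reaches. The hSS2 tumours were 13 control, 8 with floxed Pbrm1 (Pbrm1-fl), 8 with floxed Arid1a (Arid1a-fl) and 8 with floxed Arid1b (Arid1b-fl), and in hSS1 there were 5 control and 4 Pbrm1-fl tumours, so every group, controls included, carried a fusion and received Cre. Pbrm1 belongs to the PBAF remodeller, canonical BAF holds either Arid1a or Arid1b, and the floxed alleles, homozygous per the study's methods, are the target of the same Cre. Mice of both sexes were used, and the labels do not give the sex or the age at collection of a tumour.

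Library totals ranged from 10.1 to 21.3 M counts. The floxed gene was lower in its own group in hSS2 Pbrm1-fl tumours (95 to 139 CPM, its counts scaled to the TMM-adjusted library size, against 171 to 316 CPM in controls) and in hSS1 Pbrm1-fl tumours (102 to 252 against 275 to 373 CPM). Arid1a was at 229 to 276 CPM in Arid1a-fl tumours and 238 to 587 CPM in controls, where hSS2 control replicate 9, at 238 CPM, stood within the Arid1a-fl range, against its label. Arid1b ranged from 111 to 347 CPM in Arid1b-fl tumours and from 222 to 686 CPM in controls, so these groups overlapped. Mouse numbers, read from the titles, fell into ranges that coincided with the floxed gene, so range and genotype cannot be told apart without the controls of the same range. Summed CPM of 9 skeletal muscle markers ran from 5.33 to 40758 across hSS2 tumours and from 7.55 to 593 across hSS1 tumours, and the 5 synovial sarcoma markers were detected in every group, at 390 to 1174 summed CPM. Their median sum was 433 CPM in hSS2 Pbrm1-fl and 681 CPM in hSS2 control tumours (median log2 difference of the list -0.72). Of these 5 markers 1, Sox11, was called lower in hSS2 Pbrm1-fl tumours by edgeR's quasi-likelihood test, where 7.35% of all genes were called. An unadjusted p under 0.05 was found for 4 of them, beside 22.4% of all genes.

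Promoters are shown for Ezh2, Phf19 and Ezh1, since the first 2 rose and the third fell with the proliferation marker Mki67 in the comparison further on. RefSeq promoters (GRCm38.p6), from 250 bases before to 50 bases after the start, were found for all 10 genes and for Mki67. They were searched on both strands for the E2F motif spelled TTTCCCGC, TTTGGCGC, TTTCGCGC or TTTGCCGC, for the CHR element TTTGAA and for CCAAT, letters that factors of cell cycle genes are known to bind. Capitals mark the E2F letters in the lines that follow, each written 5′ to 3′ along the gene's own strand.
Ezh2, chr6:47594981-47595280, minus strand: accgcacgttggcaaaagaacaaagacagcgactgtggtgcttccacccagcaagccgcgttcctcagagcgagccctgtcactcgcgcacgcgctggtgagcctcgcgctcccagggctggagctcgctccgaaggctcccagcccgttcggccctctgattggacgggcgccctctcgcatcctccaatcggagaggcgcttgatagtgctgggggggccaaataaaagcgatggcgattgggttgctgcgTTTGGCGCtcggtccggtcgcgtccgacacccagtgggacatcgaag
Phf19, chr2:34913927-34914226, minus strand: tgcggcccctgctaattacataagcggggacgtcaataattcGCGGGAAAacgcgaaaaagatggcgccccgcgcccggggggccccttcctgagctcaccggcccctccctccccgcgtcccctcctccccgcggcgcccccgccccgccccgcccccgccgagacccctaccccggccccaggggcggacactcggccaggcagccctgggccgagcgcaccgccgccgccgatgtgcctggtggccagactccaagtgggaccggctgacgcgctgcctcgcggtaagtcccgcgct
Ezh1, chr11:101226414-101226713, minus strand: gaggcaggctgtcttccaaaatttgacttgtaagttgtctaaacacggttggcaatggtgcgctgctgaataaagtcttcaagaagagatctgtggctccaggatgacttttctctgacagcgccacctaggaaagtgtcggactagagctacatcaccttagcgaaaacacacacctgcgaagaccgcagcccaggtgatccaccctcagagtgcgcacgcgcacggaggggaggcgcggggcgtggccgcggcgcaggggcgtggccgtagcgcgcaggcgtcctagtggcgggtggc

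An E2F match began at base 4 of the transcribed part of Ezh2, 208 bases before the start of Phf19 and 219 bases before that of Suz12, and in 2.26% of all 32851 promoters of the table. The other 7 members had no E2F match in these windows. CHR letters were found for Eed, Suz12 and 1 of the 2 Mtf2 promoters, beside 17.9% of all promoters, and CCAAT was found for 7 members, beside 37.4%. The Ezh1 and Phf1 windows held none of the 3 motifs. The Mki67 window held CHR and CCAAT letters and no E2F match. A match is a description of letters, not a bound site.

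Levels differed widely among the members. On the length-scaled scale (TPM, counts divided by the union of exons and scaled to the same sum in each tumour), Rbbp7 was highest in both backgrounds, with a median of 198 TPM in hSS2 and 218 TPM in hSS1, and Phf19 was lowest, at 7.16 and 6.68 TPM. Rbbp4 followed Rbbp7, at 77.7 TPM in hSS2 and 93.2 TPM in hSS1, and Suz12 came next, at 65.3 and 85.7 TPM. The medians of Ezh1 (36.5 TPM), Mtf2 (37.8 TPM) and Ezh2 (32.5 TPM) in hSS2 lay close together, with ranges that overlapped. The 2 tables were normalised separately, so levels are set side by side across them without a test.

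**Figure D1:**
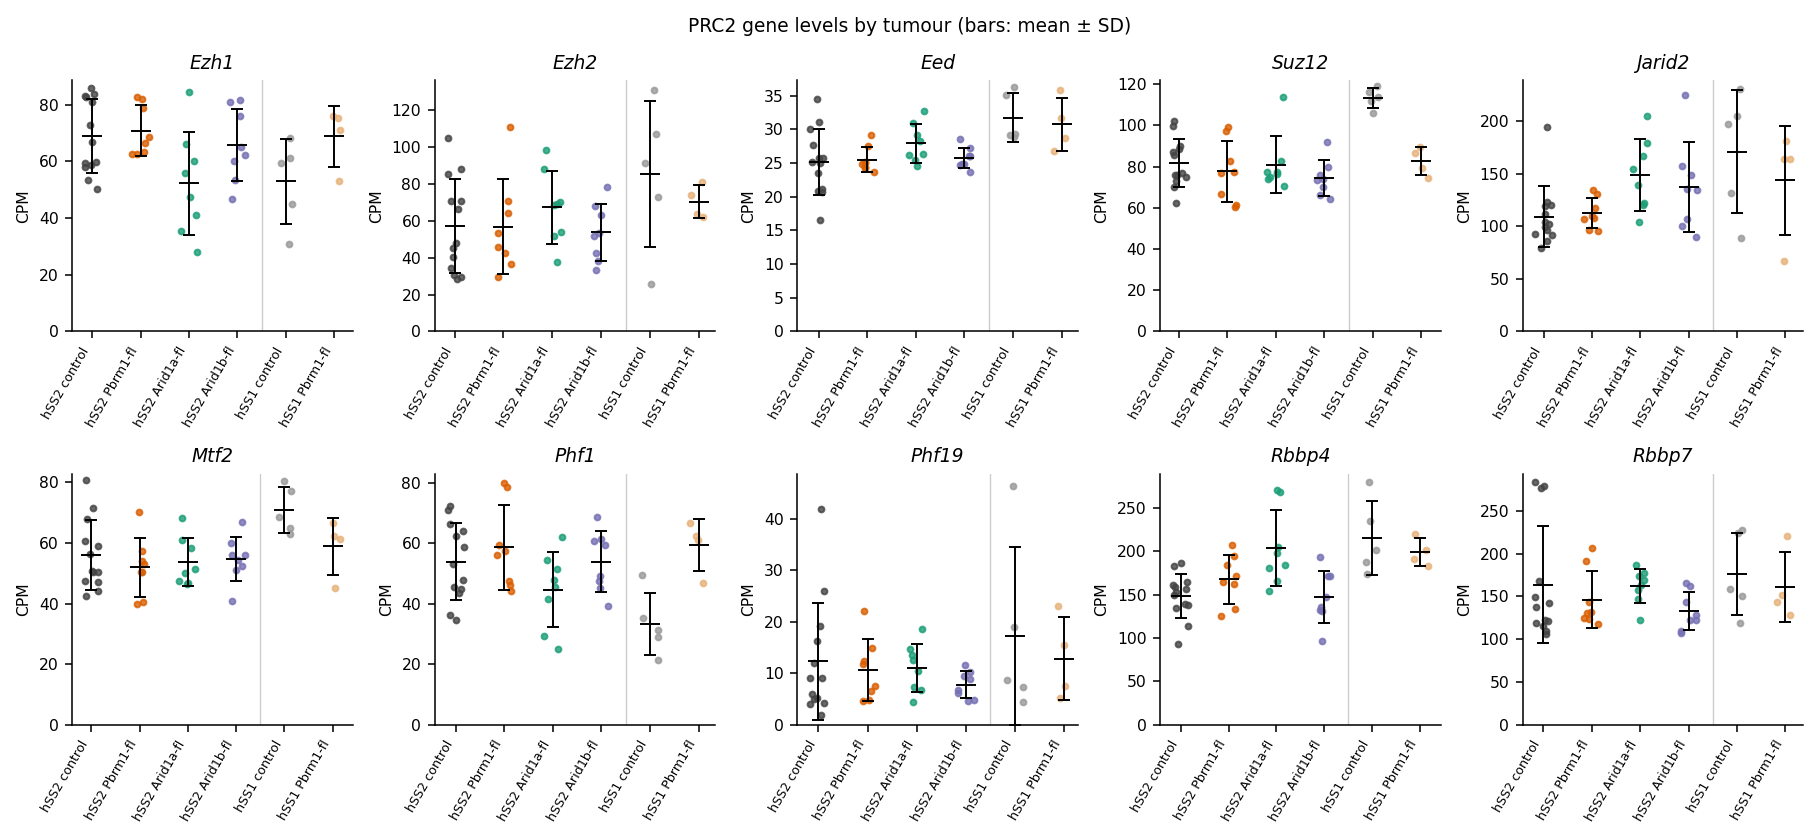
Level of each PRC2 gene in CPM (linear axis from 0) by genotype group, with 1 point per tumour and bars for the mean and SD; the line in each panel parts hSS2 from hSS1. Phf19 spans 1.98 to 46.5 CPM, while Eed spans 16.5 to 36.3 CPM.

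Phf19 was the most variable member and Eed and Suz12 were among the least. In hSS2 the highest tumour had 21.2 times the Phf19 CPM of the lowest, against 3.96 times for Ezh2, 3.22 for Phf1, 3.04 for Ezh1, 2.91 for Rbbp4, 2.82 for Jarid2, 2.68 for Rbbp7, 2.09 for Eed, 2.03 for Mtf2 and 1.90 for Suz12. In hSS1 the same ratio was 10.5 for Phf19, 5.09 for Ezh2 and 1.35 for Eed. Within groups, the SD of log2 CPM in hSS2 was 0.908 for Phf19, 0.56 for Ezh2 and 0.194 for Eed.

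Ezh2, the catalytic subunit of dividing cells, had overlapping levels in the genotype groups of each background. Its lowest, median and highest CPM were 28.2, 47.9 and 105 in hSS2 control, 29.5, 49.8 and 111 in hSS2 Pbrm1-fl, 37.5, 68.9 and 98.5 in hSS2 Arid1a-fl and 33.4, 52.7 and 78.3 in hSS2 Arid1b-fl tumours. All 4 ranges shared the values from 37.5 to 78.3 CPM. In hSS1, Ezh2 was at 107, 72.9, 131, 91.1 and 25.7 CPM in the 5 control tumours and at 62.1, 74.2, 81.3 and 63.9 CPM in the 4 Pbrm1-fl tumours, and control replicate 5 had the lowest value of all 46 tumours. The log2 difference from control was -0.01 (SE 0.25, adjusted p = 0.991) for Pbrm1-fl, 0.24 (SE 0.24, adjusted p = 0.574) for Arid1a-fl and -0.09 (SE 0.25, adjusted p = 0.99) for Arid1b-fl in hSS2, and -0.28 (SE 0.38, adjusted p = 0.741) for Pbrm1-fl in hSS1, all by edgeR's quasi-likelihood test. The 95% interval for hSS2 Pbrm1-fl ran from -0.50 to 0.49 and that for hSS1 Pbrm1-fl from -1.14 to 0.58.

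Ezh1, the catalytic subunit of resting tissue, had its lowest values in Arid1a-fl tumours. Its lowest, median and highest CPM were 50.3, 67 and 85.8 in hSS2 control, 62.5, 67.6 and 82.8 in hSS2 Pbrm1-fl, 28.2, 51.8 and 84.4 in hSS2 Arid1a-fl and 46.9, 63.7 and 81.7 in hSS2 Arid1b-fl tumours. Of the 8 Arid1a-fl tumours, 4 lay below the lowest control and the other 4 within the control range. The Arid1a-fl difference from control was -0.40 on the log2 scale (SE 0.15, adjusted p = 0.106 by edgeR). Without Arid1a-fl replicate 6, the tumour with the highest Ezh1 of that group, it was -0.53 (adjusted p = 0.0259). That was the 1 refit of 37 to pass. Over all 37 the difference ran from -0.53 to -0.30, with adjusted p up to 0.244 by edgeR. Replicate 6 also had the lowest Mki67 of its group, at 130 CPM. In hSS1, Ezh1 was at 68.4, 61.3, 59.3, 45.1 and 30.8 CPM in control and 75.3, 71, 76 and 53.2 CPM in Pbrm1-fl tumours (log2 difference 0.38, SE 0.23, adjusted p = 0.427 by edgeR).

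In edgeR, Rbbp4 was the 1 member past the threshold in any genotype comparison, in Arid1a-fl tumours against control. Rbbp4, a histone binding protein shared with other chromatin complexes, was at 93.2, 153 and 186 CPM (lowest, median, highest) in hSS2 control and at 154, 191 and 271 CPM in Arid1a-fl tumours. The groups overlapped between 154 and 186 CPM. The log2 difference was 0.45 (SE 0.12, 95% interval 0.21 to 0.70, adjusted p = 0.0405 by edgeR), and 1 of 10 members was called where 3.17% of the 20083 genes tested were. The call was lost against controls of the same mouse number range (log2 difference 0.45, adjusted p = 0.0791), without the filter on low counts (adjusted p = 0.0552) and with Mki67 as a covariate (0.37, adjusted p = 0.1). It was also lost without hSS2 control replicate 4 (adjusted p = 0.0543), 5 (0.0563), 7 (0.0511), 9 (0.0535) or 12 (0.0519), and without Arid1a-fl replicate 1 (0.106), 2 (0.0613), 5 (0.0579), 7 (0.0679) or 8 (0.119), while the log2 difference stayed between 0.39 and 0.50 in all 37 refits and the call held in 27 of them. Without the filter the difference was 0.47. Of 26 proliferation genes 1, Mcm4, was called higher in Arid1a-fl tumours and 15 had an unadjusted p under 0.05, as did 23% of all genes (median log2 difference of the list 0.75). Of the 4 adipocyte and 4 T cell markers tested, none was called by edgeR, 3 of each list had an unadjusted p under 0.05, and the median log2 differences were -2.99 and -2.73. The part of these markers in the Rbbp4 difference was not tested, nor was that of its chromosomal position relative to the floxed gene. In tissue of mixed cells, fewer cells of a type and less RNA per cell cannot be told apart.

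Jarid2 was at 79.6, 102 and 195 CPM (lowest, median, highest) in hSS2 control, 104, 147 and 205 CPM in Arid1a-fl and 89.9, 136 and 225 CPM in Arid1b-fl tumours. Its log2 difference from control was 0.44 in Arid1a-fl (SE 0.15, adjusted p = 0.0728) and 0.33 in Arid1b-fl tumours (SE 0.15, adjusted p = 0.767), both by edgeR. DESeq2 gave adjusted p = 0.0358 for the first. Against controls of the same mouse number range it was 0.25 (adjusted p = 0.402 by edgeR). It passed in edgeR without Arid1a-fl replicate 3 (adjusted p = 0.0438), Arid1b-fl replicate 6 (0.0492) or control replicate 10 (0.0195).

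No member was called in hSS2 Pbrm1-fl tumours, where 7.35% of the genes tested were, and none of the 10 had an unadjusted p under 0.05, as 22.4% of all genes did. Differences from control ran from -0.21 for Phf19 to 0.18 for Rbbp4 on the log2 scale. In Arid1b-fl tumours 0.0548% of genes were called and no member was, with 1 member at an unadjusted p under 0.05, beside 6.22% of all genes. DESeq2 called no member in either comparison. Between floxed groups no member was called either: 12.3% of genes were called for Pbrm1-fl against Arid1a-fl, 4.37% for Pbrm1-fl against Arid1b-fl and 0.0996% for Arid1a-fl against Arid1b-fl, and 3, 0 and 2 members had an unadjusted p under 0.05, beside 26.8%, 17.9% and 12.5% of all genes, with none called by DESeq2. Ezh1 passed between Pbrm1-fl and Arid1a-fl tumours without Arid1a-fl replicate 3 (adjusted p = 0.0459) or replicate 6 (0.0127), and with Mki67 as a covariate (log2 difference 0.37, adjusted p = 0.0274), all by edgeR.

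**Figure D2:**
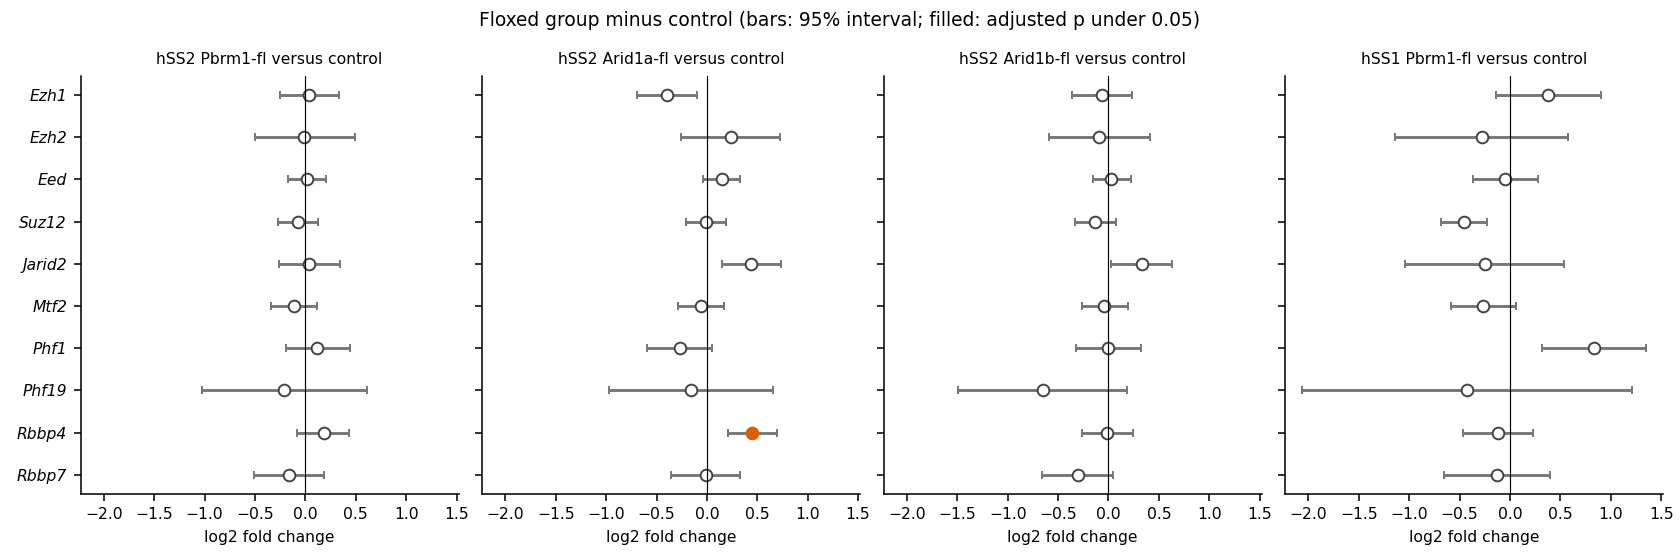
Log2 fold change of each PRC2 gene, floxed group minus control of the same background, with 95% intervals from edgeR; filled points passed an adjusted p of 0.05. Rbbp4 in Arid1a-fl tumours (0.45) is the filled point.

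In hSS1, Suz12 was lower in every Pbrm1-fl tumour than in any control and Phf1 was mostly higher, and neither passed the main test. Suz12, the scaffold, was at 116, 112, 119, 106 and 114 CPM in control and 79.5, 86.7, 89.7 and 74.7 CPM in Pbrm1-fl tumours. Phf1, a Polycomb-like protein, was at 31.5, 35.2, 21.4, 49.4 and 29 CPM in control and 62.3, 46.9, 66.8 and 61.2 CPM in Pbrm1-fl tumours. All Suz12 values of Pbrm1-fl tumours lay below all control values, while for Phf1 the groups overlapped by 1 control tumour at 49.4 CPM. The log2 differences were -0.46 (SE 0.10, 95% interval -0.68 to -0.23, adjusted p = 0.121) for Suz12 and 0.83 (SE 0.23, 95% interval 0.32 to 1.35, adjusted p = 0.157) for Phf1 by edgeR, which called 0.00562% of 17786 genes and no member, with 2 members at an unadjusted p under 0.05, beside 17.2% of all genes. DESeq2 called both, with adjusted p = 8.7e-05 for Suz12 and 0.0289 for Phf1. With Mki67 as a covariate the differences were -0.45 (adjusted p = 0.231) and 0.94 (adjusted p = 0.251) by edgeR.

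Subtracting the hSS2 difference between Pbrm1-fl and control tumours from the hSS1 difference gave -0.39 (SE 0.17, adjusted p = 0.18) for Suz12 and 0.71 (SE 0.28, adjusted p = 0.161) for Phf1 on the log2 scale. In hSS2 both genes had small differences, at -0.07 (SE 0.10) for Suz12 and 0.12 (SE 0.16) for Phf1. This test called 2.86% of 21725 genes and no member in edgeR, 2 members had an unadjusted p under 0.05, beside 18.9% of all genes, and DESeq2 called none. All hSS1 Pbrm1-fl mice were numbered 1000 to under 2000 and all hSS2 Pbrm1-fl mice 2000 or over. Pbrm1 itself was at 102 to 252 CPM in Pbrm1-fl tumours of hSS1 and at 95 to 139 CPM in those of hSS2. The part of this in the contrast was not tested.

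The relation to Mki67, a protein of dividing cells used to mark proliferation, was examined across tumours. Mki67 ran from 48.5 to 799 CPM across the 37 hSS2 tumours, a 16.5-fold range, and from 225 to 1082 CPM across the 9 hSS1 tumours, a 4.81-fold range. Its own difference from control was -0.02 (SE 0.43) in Pbrm1-fl, 0.45 (SE 0.43) in Arid1a-fl and -0.15 (SE 0.44) in Arid1b-fl tumours of hSS2 on the log2 scale, and -0.82 (SE 0.36, adjusted p = 0.289 by edgeR) in hSS1 Pbrm1-fl tumours. Every gene was fitted with a common slope on log2 CPM of Mki67 beside its genotype groups.

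In hSS2, Phf19, Ezh2 and Rbbp7 rose with Mki67 and Ezh1 and Phf1 fell. Per log2 unit of Mki67, log2 Phf19 changed by 0.81 (SE 0.08, adjusted p = 5.7e-10), Ezh2 by 0.45 (SE 0.05, adjusted p = 2.4e-09) and Rbbp7 by 0.23 (SE 0.05, adjusted p = 0.00253), all by edgeR. For Ezh1 the slope was -0.23 (SE 0.04, adjusted p = 4.3e-05) and for Phf1 it was -0.19 (SE 0.05, adjusted p = 0.00735), by the same test. Of 10 members 3 had a called positive slope, where 8.88% of 20082 genes had one, and 2 a called negative slope, where 7.63% had one. Within groups the Rbbp7 slope was 0.33 (SE 0.07) in control, 0.15 (SE 0.13) in Arid1a-fl, 0.08 (SE 0.15) in Arid1b-fl and 0.02 (SE 0.13) in Pbrm1-fl tumours, and control replicates 9, 2 and 3 stood above all other hSS2 tumours, at 284, 279 and 277 CPM of Rbbp7. Rbbp7 lies on the X chromosome and the labels do not give sex, so the part of sex in its spread was not tested. The median slope was 0.06 over the members and -0.01 over all genes.

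**Figure D3:**
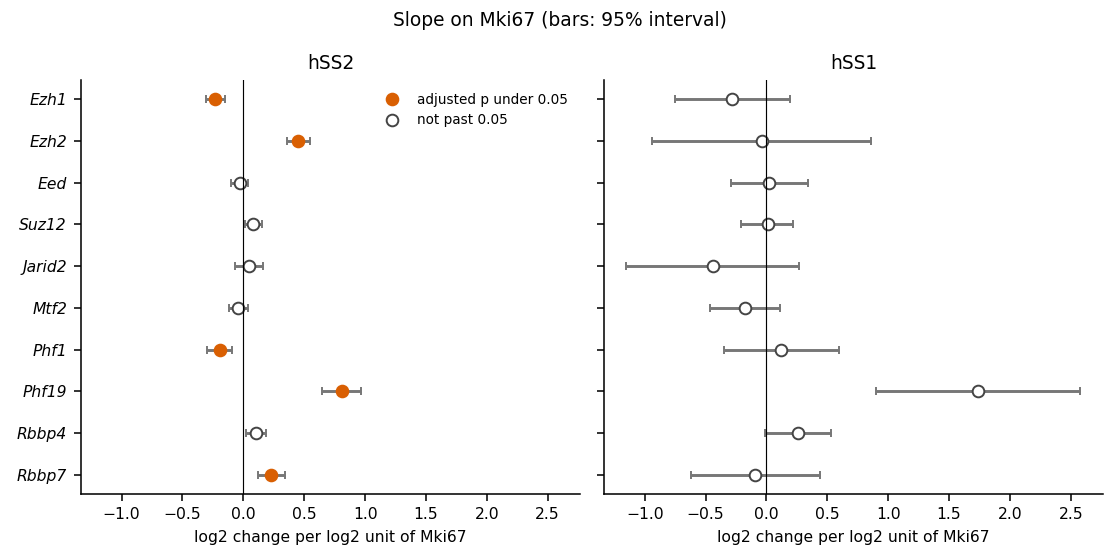
Slope of each PRC2 gene on Mki67 (log2 change per log2 unit of Mki67) in hSS2 and hSS1, with 95% intervals from edgeR; filled points passed an adjusted p of 0.05. In hSS2 the slopes run from -0.23 for Ezh1 to 0.81 for Phf19, and no hSS1 slope is filled.

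The other members had shallower slopes. Rbbp4 (0.10, SE 0.04, adjusted p = 0.0935) and Suz12 (0.08, SE 0.03, adjusted p = 0.112) did not pass in edgeR, and Jarid2 (0.05), Eed (-0.03) and Mtf2 (-0.04) had 95% intervals that spanned 0. Without hSS2 control replicate 9 or Arid1b-fl replicate 6 the Rbbp4 slope passed (adjusted p = 0.0213 and 0.0409), and without hSS2 control replicate 12 that of Suz12 did (0.12, adjusted p = 0.0123). Among the core subunits the 95% interval of the Ezh2 slope was 0.36 to 0.55, that of Suz12 0.01 to 0.15 and that of Eed -0.10 to 0.04.

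**Figure D4:**
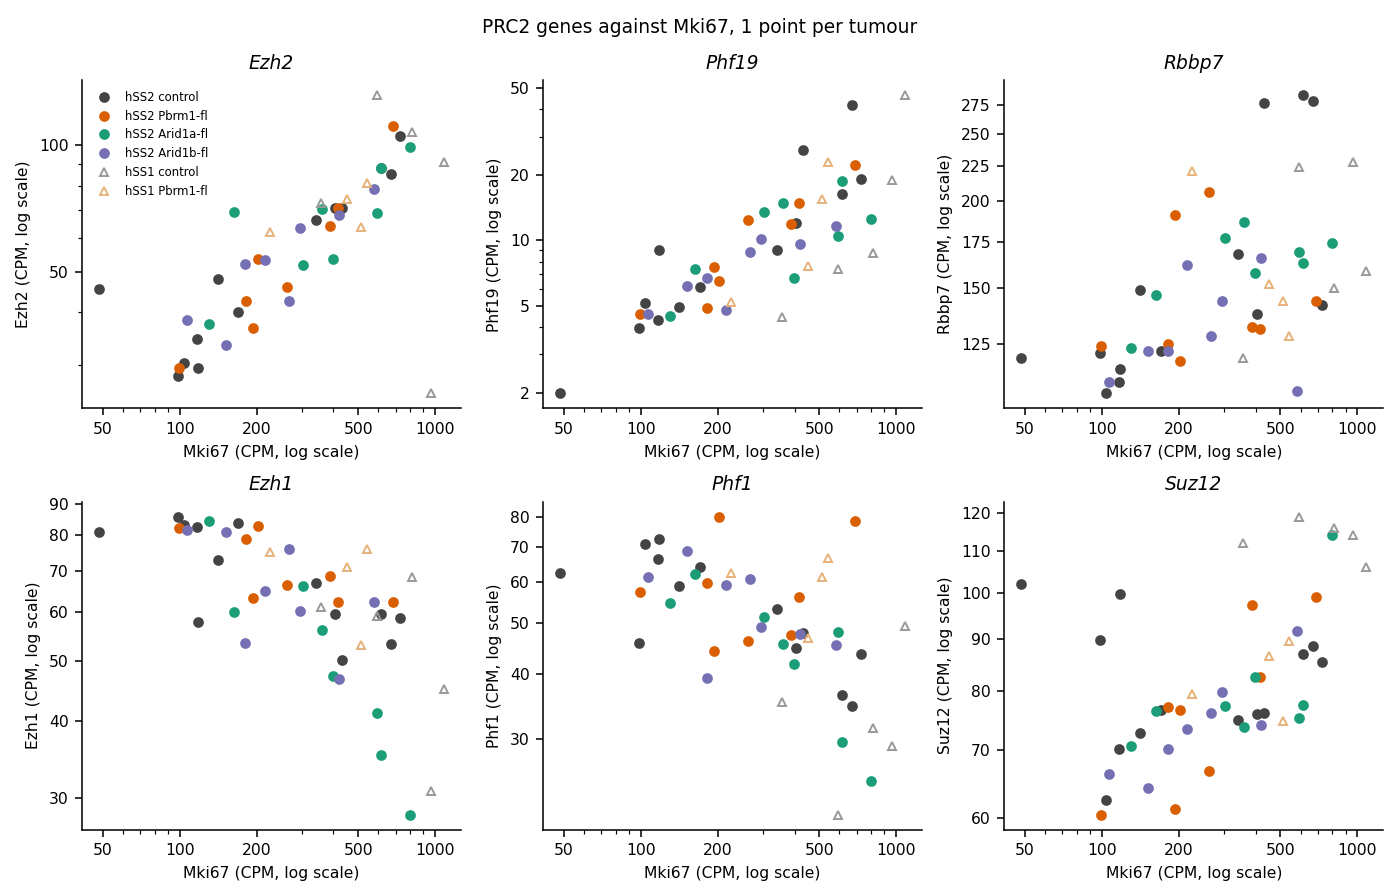
CPM of 6 PRC2 genes against Mki67 CPM (both axes log), with 1 point per tumour, circles for hSS2 and open triangles for hSS1. Ezh2 and Phf19 climb with Mki67 in hSS2 and Ezh1 declines; the hSS1 control tumour with 25.7 CPM of Ezh2 lies far below the others at its Mki67 level of 964 CPM.

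Correlations across tumours had the signs of the slopes for the 5 called genes. Over the 37 hSS2 tumours, Pearson's r with Mki67 was 0.87 for Ezh2 (Spearman's rho 0.91), 0.86 for Phf19 (rho 0.88), 0.57 for Rbbp7 (rho 0.62), -0.72 for Ezh1 (rho -0.74) and -0.59 for Phf1 (rho -0.59). The two-sided permutation p was 1.0e-05, the smallest that 100000 resamples can give, for Ezh2, Phf19 and Ezh1, both for r and for rho. It was 1.5e-04 for r and 6.0e-05 for rho of Rbbp7, and 6.0e-05 and 2.4e-04 for Phf1. For Rbbp4 r was 0.41 (permutation p = 0.0114; rho 0.51, p = 0.00142) and for Suz12 0.37 (permutation p = 0.0239; rho 0.44, p = 0.00688). In all, 20 relations were computed over both backgrounds, and these p-values are not adjusted.

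For the remaining members of hSS2, r was 0.20 for Jarid2 (rho 0.16), -0.04 for Eed (rho -0.05) and -0.16 for Mtf2 (rho -0.12), with permutation p = 0.239, 0.819 and 0.341 for r and 0.353, 0.792 and 0.463 for rho. Without the 2 tumours farthest from the median Mki67, r was 0.91 for Ezh2, 0.85 for Phf19, 0.56 for Rbbp7, -0.70 for Ezh1, -0.55 for Phf1, 0.37 for Rbbp4 and 0.51 for Suz12.

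Within groups the relation of Ezh2 and Phf19 to Mki67 was positive in each of the 4 hSS2 groups. For Ezh2, r was 0.88 in control, 0.96 in Pbrm1-fl, 0.76 in Arid1a-fl and 0.87 in Arid1b-fl tumours. For Phf19 it was 0.92, 0.94, 0.71 and 0.87 in the same order, and for Ezh1 -0.78, -0.73, -0.92 and -0.59. Phf1 had r of -0.79, 0.21, -0.82 and -0.50, and Suz12 -0.06, 0.84, 0.61 and 0.88, so these 2 genes took both signs. Each group had 8 tumours, or 13 for control. Since each hSS2 floxed group came from 1 mouse number range, these are also values within a range for those groups.

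Slopes were tested for a difference among the 4 hSS2 groups. No member passed in edgeR, where 0.0598% of genes did, and 3 members had an unadjusted p under 0.05, beside 11.8% of all genes: Ezh1 (adjusted p = 0.267), Suz12 (0.271) and Phf1 (0.404). The Ezh1 slope was -0.52 (SE 0.08) in Arid1a-fl, -0.17 (SE 0.05) in control, -0.15 (SE 0.09) in Pbrm1-fl and -0.21 (SE 0.09) in Arid1b-fl tumours. The Suz12 slope was 0.15 (SE 0.07), -0.02 (SE 0.04), 0.27 (SE 0.08) and 0.18 (SE 0.09) in the same order.

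The balance of the 2 catalytic subunits was described by their length-scaled levels. The Ezh2 share of summed Ezh1 and Ezh2 TPM ranged from 26.8 to 66.5% (median 42.2%) in hSS2 control, 28.6 to 66.5% (42.7%) in Pbrm1-fl, 33.1 to 79.5% (57.2%) in Arid1a-fl and 31.5 to 61.8% (49.9%) in Arid1b-fl tumours. Ezh2 was the larger part in 6 of 13, 3 of 8, 6 of 8 and 4 of 8 of these tumours. In hSS1 the share ranged from 48.2 to 71.1% in control and from 47.9 to 57.2% in Pbrm1-fl tumours, with Ezh2 the larger part in 4 of 5 and 3 of 4. The groups overlapped in both backgrounds.

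**Figure D5:**
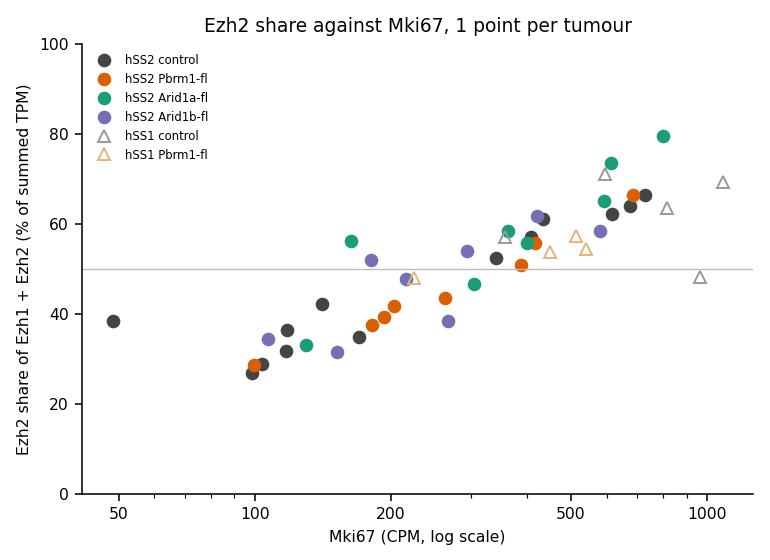
Ezh2 share of summed Ezh1 and Ezh2 TPM (percent) against Mki67 CPM (log axis), with 1 point per tumour and a line at 50%. The hSS2 tumours run from 26.8% to 79.5% and the hSS1 tumours from 47.9% to 71.1%.

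In hSS1 no member had a called slope on Mki67 in edgeR, where 0.0112% of 17785 genes had a positive and 0.0% a negative one. Phf19 had a slope of 1.74 (SE 0.37, 95% interval 0.90 to 2.58, adjusted p = 0.195) and was the 1 member with an unadjusted p under 0.05, beside 7.13% of all genes. DESeq2 called it (adjusted p = 0.00132). The Ezh2 slope was -0.04 (SE 0.39, 95% interval -0.94 to 0.86), an interval that holds the hSS2 slope of 0.45. Without hSS1 control replicate 5, chosen after its values were seen, the Ezh2 slope was 0.19 and r with Mki67 moved from -0.05 to 0.64 (exact permutation p = 0.0881, n = 8). Spearman's rho moved from 0.38 (exact permutation p = 0.312) to 0.83 (exact permutation p = 0.0154), both unadjusted.

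Over the 9 hSS1 tumours, r with Mki67 was 0.74 for Phf19 (exact permutation p = 0.0237; rho 0.75, p = 0.0255) and 0.70 for Rbbp4 (exact permutation p = 0.0348; rho 0.72, p = 0.0369). Without the 2 tumours farthest from the median Mki67, r was 0.51 for Phf19 (exact permutation p = 0.241) and 0.69 for Rbbp4 (exact permutation p = 0.0901, n = 7), so r fell for Phf19 and was nearly the same for Rbbp4, while p was over 0.05 for both. With group means subtracted, r was 0.86 for Phf19 and 0.71 for Rbbp4 (n = 9). For Ezh1 r was -0.65 (exact permutation p = 0.0566; rho -0.62, p = 0.0857). For the other 7 members r lay between -0.38 for Phf1 and 0.56 for Suz12, with p over the threshold. With group means subtracted, r for Suz12 was 0.03.

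The slope in hSS1 minus that in hSS2 was called for no member in edgeR, where 0.0138% of 21724 genes were, and 1 member, Phf19, had an unadjusted p under 0.05, beside 7.63% of all genes (difference 0.93, SE 0.30, adjusted p = 0.439). For Ezh2 the difference was -0.48 (SE 0.24, 95% interval -0.97 to 0.01, adjusted p = 0.663).

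Markers of other cells moved with Mki67 in hSS2. All 4 adipocyte markers tested fell with Mki67 (median slope -1.47), 2 of 5 endothelial markers, Cdh5 and Kdr, rose, and of 4 T cell markers tested 1, Cd3e, fell, by edgeR's adjusted p. None of 9 skeletal muscle markers (median slope -1.06), 7 macrophage markers, 3 erythroid markers or 5 synovial sarcoma markers passed with the common slope. Within Arid1b-fl tumours all 3 erythroid markers rose by edgeR's adjusted p (median slope 4.39), where 290 of 20082 genes were called. Their summed CPM there ran from 21.4 to 39116. Within Pbrm1-fl tumours no macrophage marker was called, and all 7 had an unadjusted p under 0.05 (median slope -1.04), beside 14.8% of all genes. The score of the muscle list had r of -0.44 with Mki67, -0.51 with Ezh2 and 0.46 with Ezh1, group means subtracted (n = 37). The adipocyte score had r of -0.43, -0.59 and 0.50 with Mki67, Ezh2 and Ezh1, the T cell score -0.35, -0.54 and 0.43, and the endothelial score 0.49, 0.36 and -0.41. With the muscle score as a covariate the slopes were 0.80 for Phf19, 0.42 for Ezh2, 0.25 for Rbbp7, -0.21 for Ezh1 and -0.20 for Phf1, and all 5 passed in edgeR. The part of the adipocyte, endothelial, T cell, erythroid and macrophage markers in these slopes was not tested.

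Of 26 proliferation genes 25 rose with Mki67 in hSS2 (median slope 0.90). Of 14 other genes of the PRC2 pathway and of marks that oppose it, 3 rose and 1 fell. Among all genes tested 8.88% had a called positive slope and 7.63% a called negative one. Nsd2, which methylates lysine 36 of histone H3, had a slope of 0.29 (SE 0.03, adjusted p = 3.3e-09), Lcorl, related to the PRC2 partner Lcor, 0.25 (SE 0.05, adjusted p = 2.0e-04) and Aebp2, an accessory subunit, 0.09 (SE 0.03, adjusted p = 0.0257), all by edgeR. Ep300, which acetylates histones, had a slope of -0.10 (SE 0.02, adjusted p = 0.00257 by edgeR). By genotype, AU022751, the mouse counterpart of the PRC2 inhibitor EZHIP, was higher in hSS2 Pbrm1-fl tumours (log2 difference 2.41, SE 0.67, adjusted p = 0.0231 by edgeR), and none of the 14 was called in Arid1a-fl or Arid1b-fl tumours against control. It was 1 of 14 in Pbrm1-fl, where 7.35% of all genes were called, beside 3.17% in Arid1a-fl and 0.0548% in Arid1b-fl. AU022751 was also higher in Pbrm1-fl than in Arid1a-fl tumours (2.84, SE 0.81, adjusted p = 0.0182 by edgeR), where 12.3% of all genes were called. Against Arid1b-fl tumours it did not pass (2.11, SE 0.78, adjusted p = 0.119 by edgeR). Alternatives and refits without single tumours are given for the members only, so none is given for AU022751. AU022751 had 0 to 32 reads (median 6) in a control and 4 to 118 (median 35.5) in a Pbrm1-fl tumour of hSS2. It had 0 to 37 reads (median 2) in an Arid1a-fl and 1 to 54 (median 6.5) in an Arid1b-fl tumour, so the ranges overlapped. In hSS1 it had 0 to 33 reads in a control and 0 to 1 in a Pbrm1-fl tumour. It did not pass the filter of the hSS1 table. In the fit of all 46 libraries the Pbrm1-fl difference in hSS1 lay below that in hSS2 (-6.40, SE 1.67, adjusted p = 0.028 by edgeR), a fitted value that rests on 2 reads in all in the hSS1 Pbrm1-fl group and is no bound.

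Genes whose pattern over the 37 hSS2 tumours was most like that of a member, group means subtracted, were the 3 with the largest r. For Ezh2 these were Cdkn2c (0.94), Hells (0.91) and Kif18a (0.91), for Phf19 Hist1h3i (0.91), Fanca (0.90) and Kif4 (0.90), and for Rbbp7 Irak1 (0.89), Htatsf1 (0.86) and Eif1ax (0.86). For Ezh1 they were Crebrf (0.93), Cbx7 (0.88), a Polycomb group gene, and Peli3 (0.86), and for Phf1 Tmem150a (0.84), Nr3c2 (0.82) and Zbtb4 (0.77). In the 9 hSS1 tumours the Ezh2 pairs had r of -0.45, -0.13 and -0.15, the Phf19 pairs 0.76, 0.87 and 0.74, and the Ezh1 pairs 0.64, 0.91 and 0.41. The Rbbp7 pairs had r of -0.06, -0.18 and 0.07 there. In hSS2, Irak1, Htatsf1 and Eif1ax had r of 0.47, 0.52 and 0.36 with Mki67. For Suz12 the genes were Purb (0.85), Hnrnpll (0.84) and Nup155 (0.82), for Eed Sec23ip (0.84), Ube2d3 (0.81) and Zc3h7a (0.81), and for Rbbp4 Snrnp40 (0.90), Rpa2 (0.90) and Tardbp (0.87). For Jarid2 they were Crabp1 (0.75), Abtb2 (0.73) and Bmf (0.69), and for Mtf2 they included Zfp740 (0.72) and Zkscan2 (0.72).

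Among the members themselves, over the same 37 tumours, r was -0.66 between Ezh1 and Ezh2, 0.75 between Ezh2 and Phf19, 0.69 between Ezh1 and Phf1 and 0.55 between Suz12 and Mtf2. Over the 9 hSS1 tumours r between Ezh1 and Ezh2 was 0.80, the opposite sign, with the low values of both in control replicate 5. These are descriptions over tumours that share libraries and scaling.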

How the data were processed

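RNA was measured in 46 tumours (37 hSS2, 9 hSS1), in a count table per background. The deposited values are raw counts per gene: per the study's methods the authors aligned rRNA-depleted, directional libraries to mm10 with STAR 2.7.11 and counted with featureCounts 1.6.3. The annotation release, strand setting and multi-mapping rule are not given in the sources used here.

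Counts were fitted in edgeR 4.0.16 (R 4.3.3) with filterByExpr, TMM scaling and the robust quasi-likelihood test, two-sided, with Benjamini-Hochberg adjustment over all genes tested and a threshold of 0.05. Backgrounds were fitted separately. Differences between backgrounds used 1 fit of all 46 libraries. Slopes used log2 CPM of Mki67 (prior count 2) beside genotype, with Mki67 left out of the genes tested. Permutation tests of correlations were two-sided, with 100000 resamples in hSS2 and exact enumeration in hSS1. CPM used TMM library sizes within a table, and TPM used union exon lengths of GENCODE M21 (GRCm38). Alternatives were DESeq2 1.42.0, its size factors, no filter, a Mki67 or muscle covariate, a proliferation score, controls of the same mouse number range and leaving out each tumour. Groups came from the labels. Replicate numbers only name tumours. No 2 libraries of a group were alike within sampling noise (smallest chi-square per degree of freedom 18.6 over 178 pairs), and the code was tested on simulated data.

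Named genes were the 10 members, Mki67, the floxed genes, called genes of the pathway list and the 3 genes most correlated with each member. One of those genes is not reported here. Members and lists were chosen with earlier results of these data known. Totals of 10.1 to 21.3 M counts set the precision, and intervals cover the spread between tumours.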

Additional observations from a re-analysis of the deposited data

Results flagged for a closer look

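Among 50 combinations of gene and group with 4 to 10 tumours, 2 held a tumour far from the others of its group, where chance flags about 1 in 20. Suz12 was at 114 CPM in hSS2 Arid1a-fl replicate 1, and its gap to the next tumour was 0.723 of the group's range. Jarid2 was at 67 CPM in hSS1 Pbrm1-fl replicate 3, with a gap of 0.85 of the range. In that tumour Pbrm1 was at 102 CPM, against 209, 252 and 226 CPM in replicates 1, 2 and 4.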

How the results depend on the processing

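The 5 called hSS2 slopes (Phf19, Ezh2, Rbbp7, Ezh1, Phf1) passed in every alternative and without each tumour in turn. The Arid1a-fl against control count of 1 became 0 without the filter, with the Mki67 covariate and with same-range controls, 2 with DESeq2, and 0 to 2 without single tumours. Pbrm1-fl against Arid1a-fl gave 1 with the Mki67 covariate and 0 to 1 without single tumours. DESeq2 called 2 members for hSS1 Pbrm1-fl and 1 for the hSS1 slope. The cause was not tested. Per the study, controls were littermates, but the titles give a mouse number and no litter. The labels also give no replicate numbers shared between groups, so no paired analysis was run. The fits with controls of the same mouse number range come nearest to it. With 9 tumours hSS1 intervals are wide.

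Values that changed sign were of members not called. With same-range controls they were Ezh2 0.01 in Pbrm1-fl, Phf19 0.49 and Rbbp7 0.0034 in Arid1a-fl, and Suz12 0.02, Mtf2 0.12, Phf1 -0.12, Rbbp4 0.06 and Rbbp7 0.01 in Arid1b-fl. Also with same-range controls, Pbrm1-fl against Arid1a-fl gave Eed 0.19, Jarid2 0.06 and Mtf2 0.25, Pbrm1-fl against Arid1b-fl Eed 0.13, Suz12 -0.16, Phf19 -0.70 and Rbbp7 -0.45, Arid1a-fl against Arid1b-fl Eed -0.06, Suz12 -0.10, Jarid2 -0.11 and Rbbp7 -0.01, and hSS1 minus hSS2 Phf19 0.01. With DESeq2 size factors Eed was -0.0031 in Pbrm1-fl and Phf1 -0.01 in Arid1b-fl, and with DESeq2 they were -0.0037 and -0.01. With the Mki67 covariate Ezh2 was -0.0045 in Arid1a-fl and -0.02 for Pbrm1-fl against Arid1b-fl, Phf19 0.18 for Pbrm1-fl against Arid1a-fl, and in hSS1 Phf19 1.20 and Rbbp4 0.10. Without the filter Suz12 was 0.0032 and Rbbp7 0.0039 in Arid1a-fl, and the Eed slope within Pbrm1-fl 0.01. With the muscle covariate slopes were -0.0024 for Jarid2 in hSS2, and 0.15 for Ezh2, -0.11 for Eed and -0.0011 for Suz12 in hSS1, and with the proliferation score -0.04 for Eed in hSS1. Correlations with Mki67 were 0.05 for Eed in hSS2 and -0.12 for Mtf2 in hSS1 without the 2 farthest tumours, and -0.55 for Mtf2, 0.20 for Phf1 and -0.06 for Rbbp7 in hSS1 with group means subtracted. Without hSS1 control replicate 5, an alternative chosen after seeing the data, they were 0.64 for Ezh2, -0.03 for Eed and -0.19 for Rbbp7.

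Leaving out single tumours gave these ranges. Pbrm1-fl against control had Ezh1 -0.02 to 0.07, Ezh2 -0.22 to 0.10, Eed -0.03 to 0.06 and Phf19 -0.46 to 0.10. Arid1a-fl had Suz12 -0.10 to 0.02, Phf19 -0.30 to 0.18 and Rbbp7 -0.06 to 0.09. Arid1b-fl had Ezh2 -0.21 to 0.02, Eed -0.02 to 0.08, Mtf2 -0.10 to 0.02, Phf1 -0.07 to 0.04 and Rbbp4 -0.10 to 0.06. Pbrm1-fl against Arid1a-fl had Suz12 -0.13 to 0.03, Mtf2 -0.14 to 0.01 and Phf19 -0.30 to 0.09, Pbrm1-fl against Arid1b-fl Ezh2 -0.13 to 0.19 and Eed -0.04 to 0.02, and Arid1a-fl against Arid1b-fl Mtf2 -0.08 to 0.04. hSS1 Pbrm1-fl had Eed -0.11 to 0.03, Jarid2 -0.40 to 0.0001 and Phf19 -0.86 to 0.39, and hSS1 minus hSS2 had Phf19 -0.67 to 0.59 and Rbbp7 -0.16 to 0.15. The Eed slope in hSS2 was -0.04 to 0.01. Slopes in hSS1 were Ezh2 -0.25 to 0.19, Eed -0.06 to 0.08, Suz12 -0.02 to 0.04, Phf1 -0.08 to 0.31 and Rbbp7 -0.50 to 0.27.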
